A study of Drosophila melanogaster with 19 samples.

Results

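The heat shock chaperone genes described here are 10 *Drosophila melanogaster* genes, taken by symbol and matched by FlyBase identifier to a table of 17807 genes. They are the small heat shock protein genes *Hsp22*, *Hsp23*, *Hsp26*, *Hsp27* and *Hsp67Bc*, the Hsp70 family genes *Hsp68* and *Hsp70Ba*, the Hsp40 gene *DnaJ-1*, the Hsp90 gene *Hsp83* and the BAG-domain co-chaperone gene *stv* (*starvin*). Of the 10, 9 had counts and passed the filter on low counts, and *Hsp22* had 0 counts in all 19 libraries. RNA was measured in whole embryos at stages 12 to 14, with several GFP-positive embryos selected by hand and pooled for each library.

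The null embryos (n = 4) carried 2 different *chiffon* null alleles on chromosome 2, ETBE3 and DsRed. A *chiffon* transgene, driven in trans by *chiffon* regulatory sequences, was added to this background in the genotypes FL (n = 3), FLWF24 (n = 4) and ΔN (n = 4). FL encodes the whole protein, with both Chiffon-A, a subunit of the DDK kinase, and Chiffon-B, a subunit of the histone acetyltransferase complex CHAT. ΔN is cut short at the N terminus and FLWF24 is stopped early, and per the study both make Chiffon-B without Chiffon-A. The WT embryos (n = 4) were the parental control with the Gal4 and GFP insertions and no *chiffon* null allele. Gal4 and GFP counts were present in every library of every genotype. The replicates were described as biological, but no label tied them to separate crosses or days. The *chiffon* transcript (*chif*) was at 22.3 to 38.0 CPM (counts relative to the TMM-scaled library size) in the null libraries and at 213.2 to 548.6 CPM in the other 15, so the null labels matched the transcript. Its mean was 444.7 CPM in ΔN, where replicate 4 was at 250.4 CPM. The means of FL, FLWF24 and WT were 238.0, 254.1 and 251.4 CPM. The study also reports higher expression of the ΔN transgene than of the other constructs. The libraries held 5495395 (the lowest, ΔN replicate 4) to 21791117 gene counts (the highest, null replicate 3). Markers of neurons (*elav*, 209.3 to 675.1 CPM), muscle (*Mef2*, 234.9 to 771.2 CPM) and epidermis (*shg*, 309.3 to 848.9 CPM) were present in every library. Other listed tissue markers were near 0 in some libraries, among them *bap* (0.755 to 26.7 CPM), *Hml* (0 to 121.1 CPM), *NimC1* (0 to 10.8 CPM) and *Fbp1* (0 to 5.09 CPM). The yolk protein, *bcd*, *osk* and testis markers had medians of 0 to 2.52 CPM. The marker *gcl*, listed with *bcd* and *osk* for oocyte and early embryo RNA, went the other way, at 72.0 to 193.7 CPM.

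Heat shock proteins are chaperones that bind unfolded proteins. Small heat shock proteins hold unfolded proteins in a state from which they can be refolded. Hsp70 proteins refold them in cycles of ATP hydrolysis that Hsp40 proteins stimulate and BAG-domain proteins help to reset, and Hsp90 completes the folding of kinases, receptors and other clients. In *Drosophila*, heat activates the transcription factor Hsf, which binds upstream of these genes. Hsp83 and several small heat shock proteins are also made without heat during development.

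Of the genes, 5 lie together on chromosome arm 3L. In the annotation of the dm6 assembly, *Hsp67Bc* (9371511 to 9372497, minus strand), *Hsp22* (9372931 to 9374964, plus), *Hsp26* (9376418 to 9377427, minus), *Hsp23* (9381882 to 9382765, plus) and *Hsp27* (9384063 to 9385694, plus) fall within 14184 bases. On the same arm lie *Hsp83* (3192969 to 3197059, plus), *DnaJ-1* (5750029 to 5752189, minus) and *stv* (13477541 to 13483515, plus). *Hsp70Ba* (12465453 to 12467776, minus) and *Hsp68* (24055080 to 24057310, minus) are on 3R. All 1900 exon bases of *Hsp22* are also exon bases of *CG4456* on the same strand, which had 0 counts as well. The count of 0 for *Hsp22* therefore does not show that the gene was silent, since htseq-count by default assigns reads shared by both genes to neither.

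Per kilobase of exon, *Hsp83* was the highest of the 9 genes, with a mean over the 19 libraries of 263.8 CPM per kb. *DnaJ-1* followed with 111.3 CPM per kb, *Hsp27* with 70.5 and *Hsp67Bc* with 55.5. The lowest were *stv* with 13 CPM per kb and *Hsp70Ba* with 7.57. The *Hsp70Ba* value leaves out reads that aligned to several places, such as other Hsp70 copies, so its rank is uncertain. The genes also differed in how far libraries of one genotype lay apart. The SD within genotypes on the log2(CPM + 1) scale was 0.30 for *DnaJ-1* and 0.32 for *Hsp83*, against a median of 0.63 over all tested genes. It was 0.90 for *Hsp70Ba* and 1.03 for *stv*, the 73.0 and 81.6 percentiles of all tested genes.

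**Figure D1:**
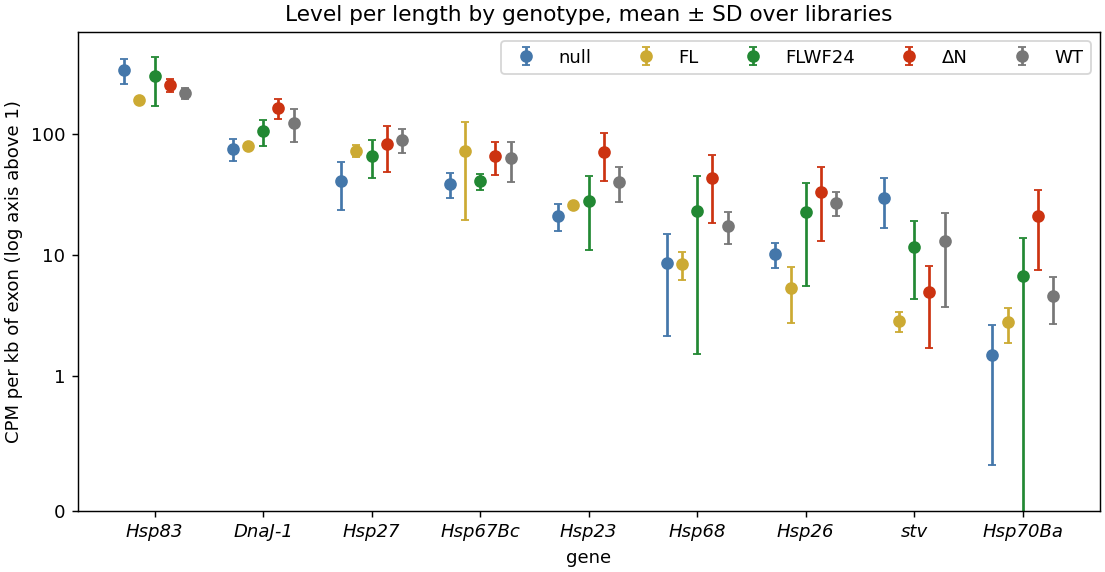
Level of the 9 measured genes in CPM per kb of exon (vertical axis, logarithmic above 1 and linear below), with 1 point per genotype and bars of 1 SD over libraries. *Hsp83* has the highest mean in every genotype, 189.9 to 337.4 CPM per kb, and *Hsp70Ba* has the lowest in every genotype except ΔN, where *stv* is lowest with 4.96 CPM per kb.

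The clearest difference lay between null and ΔN. Of the 9 genes, 5 were called lower in null and none higher: *Hsp70Ba*, *Hsp68*, *Hsp23*, *DnaJ-1* and *Hsp26*. To be called, a gene needed a log2 fold change of at least 0.5 in size and a p under 0.05 in edgeR's quasi-likelihood test, after Benjamini-Hochberg adjustment across the 11978 genes tested. Among all genes tested, 0.351% were called lower in null and 1.14% were called in either direction. In CPM, 5 of the 9 genes, the same as those called, were lower in every null library than in every ΔN library, as were 3.94% of all genes tested. The calls came from these same libraries, so this is no further evidence. The median log2 fold change of null against ΔN was -1.39 over the 9 genes and 0.15 over all genes tested. In whole embryos, fewer cells that express a gene and less RNA per cell cannot be told apart. The model held 1 factor of unwanted variation, so its fold changes differ from the ratios of mean CPM, and both are given for null and ΔN. This factor was at 2.11, 0.797, 0.00389 and 1.53 in null replicates 1 to 4. In ΔN replicates 1 to 4 it was at -0.424, -1.07, -1.16 and 0.186, so it was partly confounded with genotype here.

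*Hsp70Ba* encodes one of the near-identical Hsp70 proteins that heat induces. It was at 1.51, 4.42, 1.14 and 6.87 CPM in null replicates 1 to 4 and at 93.2, 21.9, 46.4 and 33.6 CPM in ΔN replicates 1 to 4. It was at 5.13, 5.44 and 8.91 CPM in FL replicates 2 to 4, at 6.91, 3.96, 39.6 and 12.1 CPM in FLWF24 and at 4.51, 14.4, 10.6 and 13.6 CPM in WT. Every ΔN library was above every null, FL and WT library, and FLWF24 replicate 3 lay within the ΔN range. The ratio of mean CPM of ΔN to null was 14.0. The fitted log2 fold change of null against ΔN was -5.42 (SE 0.75, edgeR adjusted p 0.000759), and without the factor of unwanted variation it was -3.80. *Hsp70Ba* was also lower in null than in FLWF24, by a log2 fold change of -2.76 (SE 0.60, edgeR adjusted p 0.0309). That was the only one of the 9 genes called in null against FLWF24, where 1.0% of all genes were called. With no adjustment, a p under 0.05 was given by edgeR for 5 of the 9 genes there and 6 of the 9 in null against ΔN, and for 16.3% and 15.3% of all genes. The edgeR adjusted p was 0.392 without FLWF24 replicate 3, 0.0597 without FLWF24 replicate 4 and 0.0662 without null replicate 2, so each of these libraries was needed for the call. The count rose to 2 without null replicate 4 or ΔN replicate 4.

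*Hsp68* encodes another heat-inducible member of the Hsp70 family. It was at 11.5, 10.2, 14.4 and 40.6 CPM in null and at 171.7, 47.1, 100.9 and 64.4 CPM in ΔN. It was at 13.7, 19.7 and 23.3 CPM in FL, at 15.8, 24.5, 122.1 and 44.8 CPM in FLWF24 and at 22.6, 39.5, 48.3 and 46.3 CPM in WT. The null and ΔN libraries did not overlap, and null replicate 4 stood above the other 3 null libraries. The log2 fold change of null against ΔN was -3.55 (SE 0.61, edgeR adjusted p 0.00677), with a ratio of mean CPM of ΔN to null of 5.01.

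*DnaJ-1*, the Hsp40 that delivers clients to Hsp70, showed the smallest change of the 5 and the narrowest spread. It was at 138.9, 140.6, 164.0 and 209.8 CPM in null and at 417.7, 263.5, 376.6 and 362.7 CPM in ΔN. Its log2 fold change of null against ΔN was -1.39 (SE 0.26, edgeR adjusted p 0.00780), and the mean CPM of ΔN was 2.17 times that of null. It was at 162.8, 179.7 and 173.4 CPM in FL, at 200.2, 207.2, 308.4 and 195.3 CPM in FLWF24 and at 191.2, 250.4, 381.5 and 245.7 CPM in WT. The ΔN libraries were above every null and FL library, and 1 WT library (replicate 3, 381.5 CPM) and 1 FLWF24 library (replicate 3, 308.4 CPM) lay within the ΔN range.

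*Hsp23*, a small heat shock protein also made by some neural cells without heat, was at 11.7, 20.2, 21.9 and 21 CPM in null and at 79.7, 42.2, 38.6 and 92.5 CPM in ΔN. Its log2 fold change of null against ΔN was -2.31 (SE 0.43, edgeR adjusted p 0.00780), and the mean CPM of ΔN was 3.39 times that of null. In the other genotypes it was at 23.6, 21.3 and 23.5 CPM in FL, at 13, 11.5, 42.7 and 32.4 CPM in FLWF24 and at 27.0, 30.9, 52.5 and 32.4 CPM in WT. The null and ΔN libraries did not overlap, and the lowest FLWF24 libraries were as low as the lowest null library.

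*Hsp26*, which lies in the same cluster, was at 11.7, 9.86, 7.19 and 12.5 CPM in null and at 58.2, 15.8, 43.6 and 17.6 CPM in ΔN. Its log2 fold change was -2.59 (SE 0.65, edgeR adjusted p 0.0499), and the mean CPM of ΔN was 3.28 times that of null. It was at 21, 4.84, 46.4 and 19.3 CPM in FLWF24. The null and ΔN libraries did not overlap. The *Hsp26* value stood at the threshold, and it stayed below 0.05 in 4 of the 19 fits that left out 1 library: its edgeR adjusted p rose to 0.0979 without ΔN replicate 1 and to 0.164 without FLWF24 replicate 3.

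The other 4 genes were not called between null and ΔN. *Hsp27*, a nuclear small heat shock protein, was at 37.6 to 105.7 CPM in null and 91.7 to 218.0 CPM in ΔN (log2 fold change -0.96, SE 0.37, edgeR adjusted p 0.218), a ratio of mean CPM of ΔN to null of 2.03. *Hsp67Bc* was at 26.3 to 46.8 CPM in null and 43.2 to 87.0 CPM in ΔN, so that both ranges overlapped (log2 fold change -0.84, SE 0.44, edgeR adjusted p 0.359, ratio of mean CPM 1.71). *Hsp83* was at 783.0 to 1275 CPM in null and 659.8 to 872.6 CPM in ΔN, with a log2 fold change of -0.06 (SE 0.23, edgeR adjusted p 0.940), while its mean CPM was 1.34 times as high in null as in ΔN. Its 3 FL libraries, at 532.1 to 584.4 CPM, were below all 4 null libraries, and its highest level was in FLWF24 replicate 3 (1461 CPM). The highest *Hsp67Bc* level was in FL replicate 4 (133.1 CPM), against 36.6 and 47.3 CPM in the other FL libraries. *Hsp27* was at 108.4 to 134.5 CPM in FL, 65.5 to 158.2 CPM in FLWF24 and 116.8 to 179.3 CPM in WT.

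**Figure D2:**
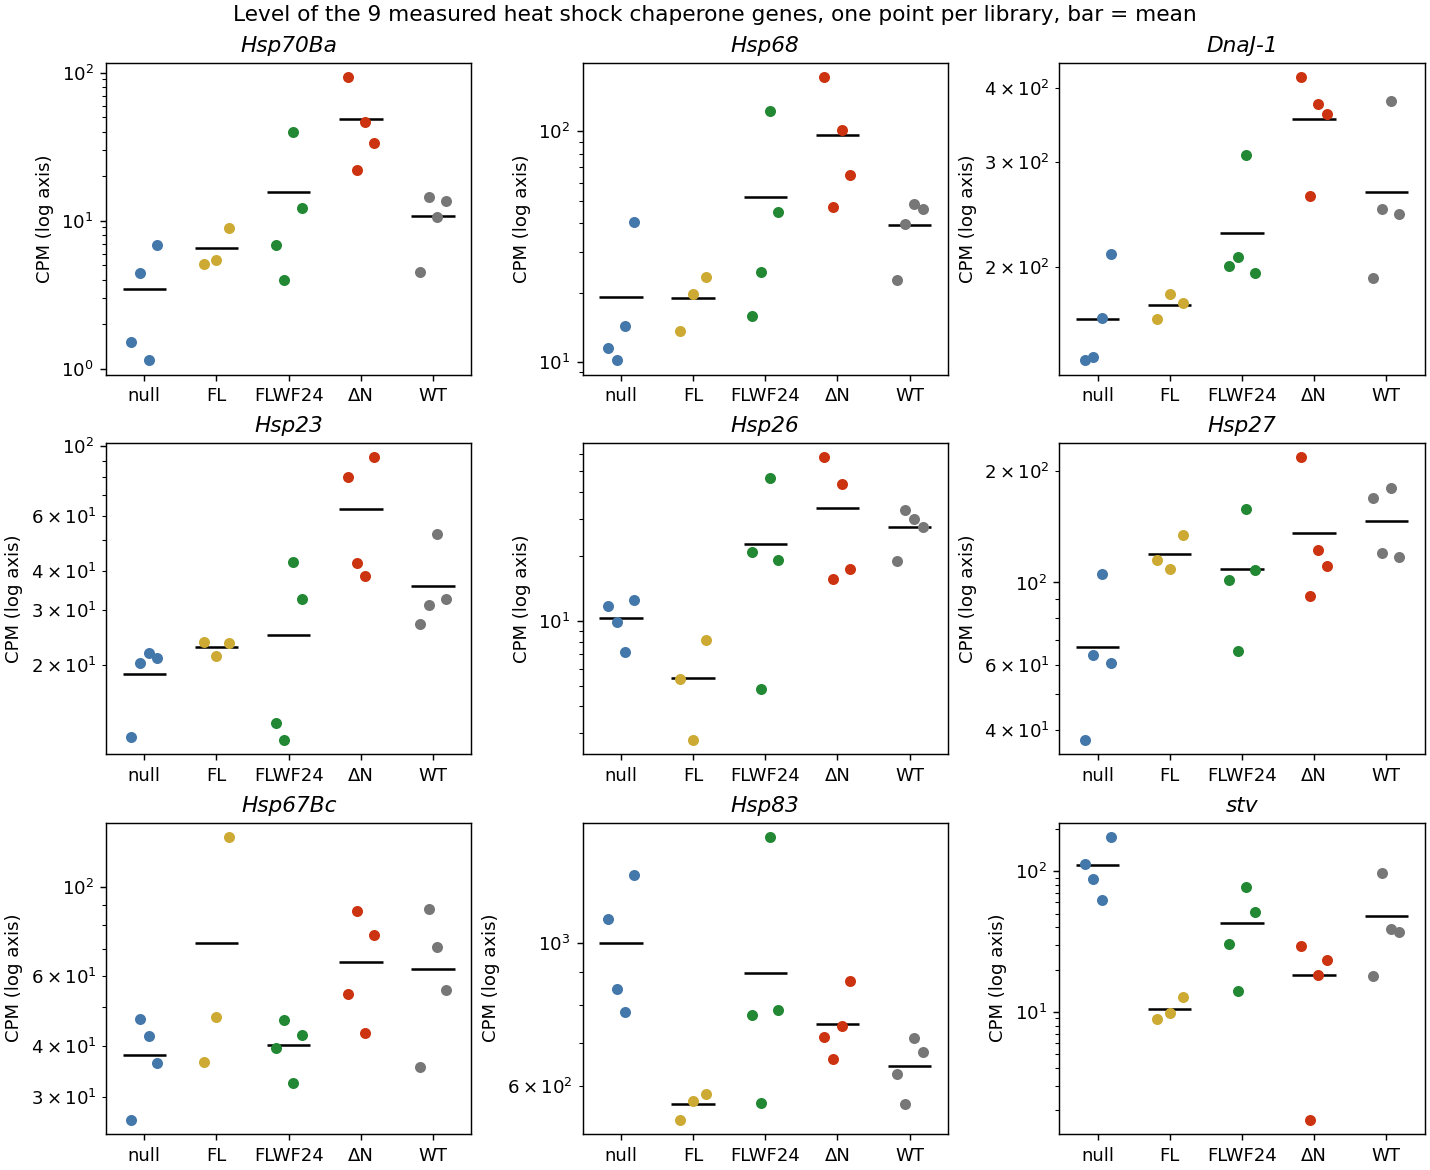
Level of each gene in CPM (vertical axes, logarithmic) by genotype, with 1 point per library and a bar at the mean. The 4 ΔN points of *Hsp70Ba* lie at 21.9 to 93.2 CPM and the 4 null points at 1.14 to 6.87 CPM, while *stv* runs the other way, with null at 62.2 to 175.6 CPM.

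*stv*, a BAG-domain protein that works with Hsp70 in muscle, ran opposite to the 5 called genes. It was at 113.0, 87.7, 62.2 and 175.6 CPM in null and at 8.91, 9.84 and 12.7 CPM in FL. It was at 30.2, 14.1, 77.2 and 51.0 CPM in FLWF24, at 29.3, 1.72, 18.3 and 23.4 CPM in ΔN and at 18.1, 97.1, 38.8 and 37.3 CPM in WT. The null libraries were above every FL and ΔN library and overlapped with FLWF24 and WT. The mean CPM of null was 6.02 times that of ΔN, and the fitted log2 fold change was 1.16 (SE 0.57, edgeR adjusted p 0.341). With *Hsp83*, it was 1 of 2 of the 9 genes above FL in every null library, where 20% of all genes tested were. The mean of null was 109.6 CPM and that of FL 10.49 CPM (n = 4 and 3), and the fitted log2 fold change was 1.75 (SE 0.63, edgeR adjusted p 0.262). Without the factor of unwanted variation it was 3.38 (edgeR adjusted p 0.0190), and over all alternatives the edgeR or DESeq2 adjusted p ran from 0.0175 to 1.

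A score of developmental stage, the mean log2(CPM + 1) of late muscle and cuticle genes minus that of early segmentation genes, differed between the genotypes. The null libraries had the highest mean, 4.61 ± 1.42 (SD, n = 4), and the FL libraries the lowest, -0.10 ± 0.85 (n = 3). WT had 1.91 ± 0.60, FLWF24 had 1.31 ± 0.31 and ΔN had 1.24 ± 1.57 (n = 4 each). With this score as a covariate in place of the factor of unwanted variation, 1 of the 5 calls in null against ΔN was left. That was *Hsp70Ba* (log2 fold change -5.94, edgeR adjusted p 0.0242), and 0.217% of all genes were called. The fold changes of *Hsp68* (-3.42), *Hsp23* (-2.21), *DnaJ-1* (-1.45) and *Hsp26* (-2.77) were close to those of the fit with that factor, with edgeR adjusted p of 0.267, 0.116, 0.0598 and 0.326. Dropping the factor without adding the score gave 7 of the 9 genes called in null against ΔN, against 12.6% of all genes. The score was not added with the factor kept. In a fit of the null and ΔN libraries alone none of the 5 was called, against 0.494% of all genes, with log2 fold changes from -1.32 to -4.26. Without both ΔN replicate 1 and FLWF24 replicate 3, an alternative chosen after seeing the data, 4 of the 5 were called, all but *Hsp26*, against 1.56% of all genes.

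Against FL and against WT, none of the 9 genes was called in null. The first comparison called 0.501% of all genes tested and the second 0.634%. At an unadjusted p under 0.05, edgeR gave 3 of the 9 genes against FL and 6 of the 9 against WT, where 11.7% and 11.5% of all genes tested had such a p. DESeq2 called 1 of the 9 against FL and 3 against WT, and 4.18% and 2.71% of all genes. The lowest adjusted p against WT was that of *Hsp70Ba* (log2 fold change -2.45, SE 0.60, edgeR adjusted p 0.0636), and *DnaJ-1* followed (-0.86, SE 0.22, edgeR adjusted p 0.0741). Against WT the edgeR count rose to 3 without null replicate 3, to 2 without null replicate 4 and to 1 without ΔN replicate 4. Against FL it rose to 1, *stv*, without ΔN replicate 2. In CPM, *Hsp23*, *Hsp26* and *Hsp27* were lower in every null library than in every WT library, and 4.15% of all genes tested were so.

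ΔN was then set against the other genotypes with a transgene and against WT. None of the 9 genes was called in ΔN against FL, WT or FLWF24, where 0.0167%, 0.0751% and 0.342% of all genes tested were called. With no adjustment, a p under 0.05 was given by edgeR for 5, 4 and 4 of the 9 genes, and for 10.6%, 10.5% and 11.8% of all genes. DESeq2 called 5, 2 and 4 of the 9, and 3.12%, 2.27% and 2.84% of all genes. The log2 fold change of *Hsp70Ba* was 2.80 against FL (SE 0.63, edgeR adjusted p 0.133), 2.98 against WT (SE 0.60, edgeR adjusted p 0.0583) and 2.66 against FLWF24 (SE 0.61, edgeR adjusted p 0.0566). In CPM, 6 of the 9 genes were higher in every ΔN library than in every FL library, namely *Hsp23*, *Hsp26*, *Hsp68*, *Hsp70Ba*, *Hsp83* and *DnaJ-1*, against 1.98% of all genes tested. Against WT the edgeR count rose to 1 without null replicate 1, FL replicate 4 or ΔN replicate 4. Against FLWF24 it rose to 2 without null replicate 1 and to 1 without null replicate 3, ΔN replicate 4 or WT replicate 2. These comparisons share the 4 ΔN libraries, and ΔN replicate 1 had the highest level of all 19 libraries for 5 of the 9 genes.

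**Figure D3:**
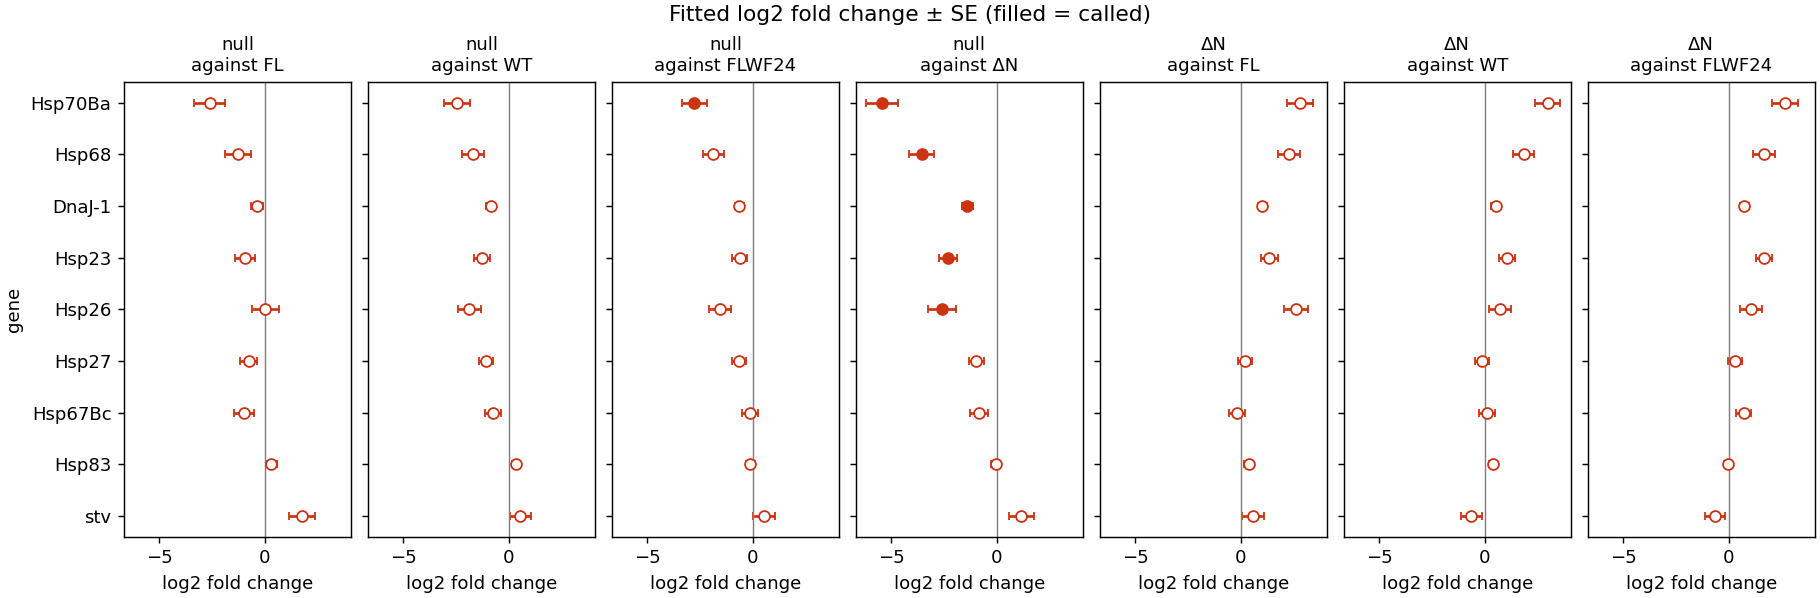
Fitted log2 fold change (horizontal axis) of the 9 genes in 7 comparisons, with bars of 1 SE and filled points where the gene was called. The filled points are the 5 genes in null against ΔN, from -1.39 for *DnaJ-1* to -5.42 for *Hsp70Ba*, and *Hsp70Ba* in null against FLWF24. Some open points changed sign under other settings, among them *Hsp68* in null against FL, shown at -1.29.

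The remaining comparisons, among FL, FLWF24 and WT, had no call among the 9 genes, where 0.0918% (FL against WT), 0.025% (FLWF24 against FL) and 0.184% (FLWF24 against WT) of all genes were called. The unadjusted p in edgeR was under 0.05 for 3, 3 and 1 of the 9 genes in this order, and for 8.73%, 6.35% and 10.1% of all genes. DESeq2 called none of the 9 in these comparisons, where it called 2.97%, 1.8% and 1.85% of all genes. *Hsp26* had the largest fold change, being lower in FL than in WT by a log2 fold change of -1.89 (SE 0.58, edgeR adjusted p 0.272). It was at 5.39, 2.78 and 8.14 CPM in FL and at 19, 32.9, 29.9 and 27.6 CPM in WT, and these ranges did not overlap. In all, 4 of the 9 genes were lower in every FL library than in every WT library, as were 7.56% of all genes tested.

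**Figure D4:**
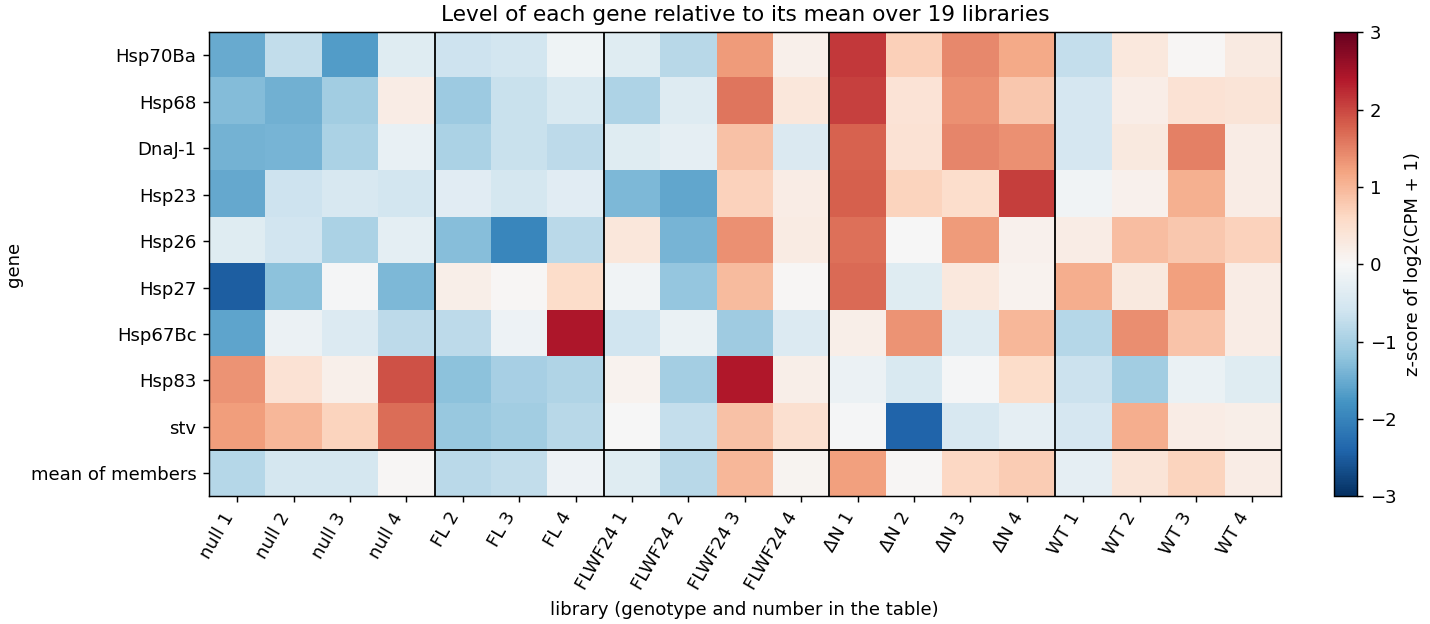
Level of each gene in each library as a z-score of log2(CPM + 1) over 19 libraries (color, red above and blue below the gene's mean), with libraries in columns by genotype. ΔN replicate 1 was the highest library for 5 of the 9 genes, and *Hsp83* and *stv* were above their means in all 4 null libraries.

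*Hsp70Ba* is 1 of 6 Hsp70 copies, and a read can align to several of them. Reads aligned to several places were counted for no gene. The count of each copy, the sum over copies and the shares below therefore hold only reads with a single place. Summed over the 6 copies, the mean level was highest in ΔN, with 256.7 ± 137.4 CPM (SD, n = 4). FLWF24 had 132.1 ± 121.4 CPM, WT had 122.1 ± 63.1 and null had 59.0 ± 39.3 (n = 4 each), and FL had 52.6 ± 15.3 CPM (n = 3). The sum was 30.3 to 117.0 CPM in null and 135.9 to 453.8 CPM in ΔN, so these groups did not overlap, and its log2 fold change of null against ΔN was -3.60 (edgeR adjusted p 0.00852). In null against FLWF24 the sum was not called (-1.77, edgeR adjusted p 0.0882). The *Hsp70Ba* share of the 6-copy counts was 18.3 ± 2.35% in ΔN (16.1% to 20.5%) and 3.67% to 13.7% in the other 15 libraries. That share was looked at after its values were seen, and is a description without a test.

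**Figure D5:**
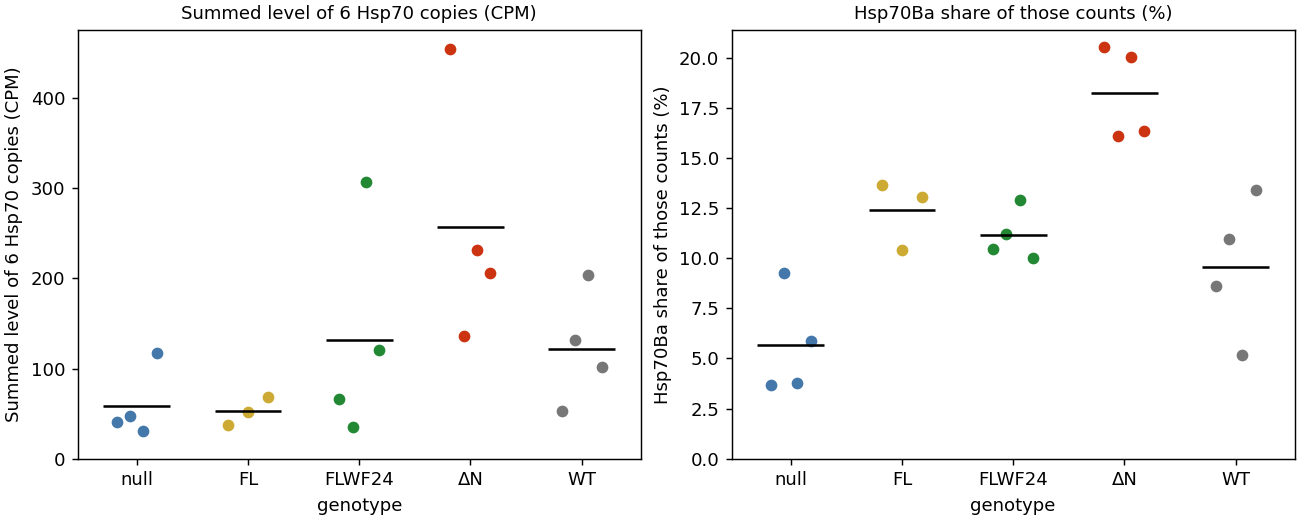
Summed level of the 6 Hsp70 copies in CPM (left) and the share of their counts assigned to *Hsp70Ba* in percent (right) by genotype, with 1 point per library and a bar at the mean. The 4 ΔN libraries lie at 16.1% to 20.5% on the right, above the other 15 at 3.67% to 13.7%.

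Other chaperone and heat shock genes were taken from lists of 49 genes, of which 42 were tested. None was called higher in null, and 1, 1 and 2 were called lower in null against WT, FLWF24 and ΔN. Calls in either direction made up 0.634%, 1.0% and 1.14% of all genes there, and calls lower in null than in ΔN 0.351%. The 2 in null against ΔN were the Hsp70 copies *Hsp70Aa* (log2 fold change -3.79, SE 0.79, edgeR adjusted p 0.0295) and *Hsp70Ab* (-3.73, SE 0.79, edgeR adjusted p 0.0365), to which reads of *Hsp70Ba* can also align. Neither was called without null replicate 2, null replicate 3 or FLWF24 replicates 1, 2 or 3, nor was *Hsp70Ab* without FLWF24 replicate 4 or ΔN replicate 3. Both calls were also lost in the fit of null and ΔN alone (edgeR adjusted p 0.280 for *Hsp70Aa* and 0.343 for *Hsp70Ab*). They were lost too with the score of stage in place of the factor of unwanted variation (0.189 and 0.346). *Hsp70Ab* was further not called without the factor of unwanted variation (edgeR adjusted p 0.0938) or with the replicate block (0.0586). The gene called against WT and FLWF24 was *Hsf*, the heat shock transcription factor. The null libraries had 155.9 ± 28.0 CPM of *Hsf* and the WT libraries 341.4 ± 56.9 (SD, n = 4 each), with a log2 fold change of -1.24 (SE 0.23, edgeR adjusted p 0.00818). That call was lost in the fit of null and WT alone (edgeR adjusted p 0.114) and with the score of stage in place of the factor (0.122). Against FLWF24 (292.2 ± 89.7 CPM, n = 4) it was -1.01 (SE 0.23, edgeR adjusted p 0.0387), and the edgeR adjusted p was 0.374 without FLWF24 replicate 3. The call against FLWF24 was also lost without null replicate 2, FLWF24 replicate 4 or WT replicate 4. It was lost too with 2 factors of unwanted variation (edgeR adjusted p 0.0620) and with the score of stage in place of the factor (0.708). Against ΔN *Hsf* was not called (-0.99, edgeR adjusted p 0.0629), but it was without the factor of unwanted variation (edgeR adjusted p 0.0248), with upper-quartile scaling (0.0415), with no filter on low counts (0.0443) and by DESeq2 (0.00672). It was also called there without null replicate 1, null replicate 3 or ΔN replicate 4 (edgeR adjusted p 0.0339 to 0.0450). None of the 9 tested genes of other stress responses was called in any of the 10 comparisons, in which 0.0167% to 1.14% of all genes were called. The chaperone lists did not all run the same way in CPM. Summed over 7 other small heat shock protein genes, null was at 198.5 to 588.7 CPM and ΔN at 141.4 to 259.1 CPM. Summed over 6 other genes of the Hsp90 family and its cochaperones, null was at 1043 to 1561 CPM and ΔN at 1710 to 1964 CPM. No gene of these 2 lists was called.

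As a description over the 19 libraries, which share genotype and depth, the gene whose log2(CPM + 1) was most like that of *Hsp70Ba* by Pearson's r was *Hsp68* (0.923). *DnaJ-1* was also most like *Hsp68* (0.906), and *Hsp68* and *Hsp23* were most like *Hsp70Ab* (0.923 and 0.827). *stv* was most like *hlk* (0.940), *Hsp27* was most like *Tl* (0.881), and *Hsp83* was most like *CG13038* (0.865). *Hsp26* was most like *inaD* (0.841) and *Hsp67Bc* most like *Hr39* (0.839). The mean of the 9 genes was compared only with tested genes outside the 9 and outside the chaperone and stress lists. Among those it was most like *CG2865* (0.788).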

How the data were processed

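Per the labels and the study's methods, the authors prepared cDNA with the Ovation RNA-seq System V2, trimmed reads with Trimmomatic, mapped them to dm6 with HISAT2 and counted them per gene with HTSeq 0.11.1. What the authors deposited were unnormalized counts of reads per gene. Of all counts, 63.6% to 96.0% per library fell outside genes, mostly as reads aligned to several places (45.0% to 85.3%), and the gene counts that remained set the precision. The header was shifted by 1 cell and its names were read in order. The table numbers the FL columns 2 to 4 where the labels have 1 to 3, so FL was matched by group and keeps the numbers of the table. Whether the kit keeps strand, which htseq-count assumes by default, was not given in the sources used here, so counts of overlapping and antisense genes are uncertain.

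After removal of 138 rRNA genes and entries that were not genes, 11978 genes passed filterByExpr. All 19 libraries were fitted together with edgeR 4.0.16 (TMM scaling, robust quasi-likelihood test, two-sided) in R 4.3.3, with 1 factor of unwanted variation by the RUVs method on the logarithm of TMM-scaled counts + 1. The study does not state the number of factors. P-values were Benjamini-Hochberg adjusted over all genes tested. DESeq2 1.42.0, other scalings, filters and factor numbers, a stage covariate, a replicate block, the compared groups alone, summed Hsp70 copies and leaving out each library were tried as alternatives. The stage covariate took the place of the factor of unwanted variation. In data simulated for null against ΔN (11431 genes), 72.5% of genes set to a log2 change of -3, 55.0% at -2 and 12.5% at -1 were called, so changes of -1 were mostly missed there. Only genes above a minimum mean count were changed, and no differences in stage or unwanted variation were simulated. Recovery in the real data can therefore differ.

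All 10 genes are named, those called or most variable with every library, and other chaperone genes where called. The members and lists were chosen with earlier results of these data known. Coordinates and exon lengths came from an annotation of BDGP6, which held 17710 of the 17807 identifiers.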

Additional observations from a re-analysis of the deposited data

Results flagged for a closer look

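In 36 groups of 4 libraries (9 genes in 4 genotypes; FL, with 3 libraries, was not examined), 3 held a library far from the other 3 by Dixon's criterion at the 95% level, which chance meets in about 1 of 20 groups. *Hsp23* was at 11.71 CPM in null replicate 1 and at 20.2 to 21.9 CPM in the other null libraries. *Hsp68* was at 40.64 CPM in null replicate 4 and at 10.2 to 14.4 CPM in the other null libraries. *DnaJ-1* was at 308.4 CPM in FLWF24 replicate 3 and at 195.3 to 207.2 CPM in the other FLWF24 libraries.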

How the results depend on the processing

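The counts of called genes among the 9 moved with the settings, and the cause was not tested; the percentage after each count is the share of all genes called in the same fit. Without the factor of unwanted variation the count was 0 in null against FLWF24 (6.8%) and 2 in null against FL (10.9%). In null against ΔN, where the fit with 1 factor called 5 (1.14%), it rose to 7 without the factor (12.6%). There it fell to 4 with RLE scaling (0.852%) and to 4 with a minimum mean of 10 counts (0.77%). With 2 such factors the count was 0 in null against FLWF24 (0.685%), 1 in ΔN against WT (0.309%) and 1 in ΔN against FLWF24 (0.601%). With upper-quartile scaling the count was 2 in null against WT (0.818%). With DESeq2 the count was 1 in null against FL (4.18%), 3 in null against WT (2.71%), 2 in null against FLWF24 (5.62%), 5 in ΔN against FL (3.12%), 2 in ΔN against WT (2.27%) and 4 in ΔN against FLWF24 (2.84%). With the compared groups alone the count was 1 in null against FL (2.24%), 0 in null against FLWF24 (6.39%), 0 in null against ΔN (0.494%) and 1 in FL against WT (1.39%). With the stage score as a covariate the count was 0 in null against FLWF24 (0.0167%) and 1 in null against ΔN (0.217%). With the Hsp70 copies summed the count was 0 in null against FLWF24 (0.96%). Without both ΔN replicate 1 and FLWF24 replicate 3, an alternative chosen after seeing the data, the count was 0 in null against FLWF24 (0.0843%). Leaving out each library in turn gave 0 to 1 in null against FL (0.175% to 2.61%), 0 to 3 in null against WT (0.31% to 2.33%), 0 to 2 in null against FLWF24 (0.0588% to 4.13%), 4 to 5 in null against ΔN (0.521% to 3.7%), 0 to 1 in ΔN against WT (0.00838% to 0.318%) and 0 to 2 in ΔN against FLWF24 (0.109% to 0.553%), and 0 in the others.

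Other log2 fold changes changed sign, all of them values that were not called. Without the factor of unwanted variation the value was 0.024 for *Hsp68* in null against FL, 0.16 for *Hsp83* in null against FLWF24, 0.42 for *Hsp83* in null against ΔN, -0.73 for *Hsp70Ba* in FL against WT, -0.20 for *Hsp83* in FL against WT, 0.12 for *Hsp23* in FLWF24 against FL and -0.15 for *stv* in FLWF24 against WT. With 2 such factors the value was -0.073 for *Hsp68* in FLWF24 against WT and -0.027 for *stv* in FLWF24 against WT. With RLE scaling the value was 0.012 for *Hsp83* in ΔN against FLWF24. With upper-quartile scaling the value was -0.081 for *Hsp26* in null against FL. With DESeq2 the value was 0.012 for *Hsp83* in ΔN against FLWF24. With a minimum mean of 10 counts the value was -0.035 for *Hsp26* in null against FL. With the compared groups alone the value was 0.077 for *Hsp23* in null against FL, 0.0035 for *Hsp67Bc* in null against FLWF24, 0.031 for *Hsp83* in null against ΔN, -0.17 for *Hsp70Ba* in FL against WT and -0.19 for *Hsp83* in FL against WT. With the stage score as a covariate the value was -0.47 for *Hsp26* in null against FL, -0.33 for *stv* in null against WT, -0.54 for *stv* in null against FLWF24 and -0.17 for *stv* in ΔN against FL. With the replicate block the value was -0.26 for *Hsp26* in null against FL, -0.0023 for *Hsp67Bc* in FL against WT, -0.071 for *stv* in FLWF24 against WT and 0.0090 for *Hsp67Bc* in ΔN against FL. With the Hsp70 copies summed the value was -0.43 for *Hsp70Ba* in FL against WT and -0.079 for *Hsp70Ba* in FLWF24 against WT. Leaving out each library in turn, or both ΔN replicate 1 and FLWF24 replicate 3 (chosen after seeing the data), gave -0.29 to 0.44 for *Hsp26* in null against FL, -0.46 to 0.0018 for *Hsp67Bc* in null against FLWF24, -0.25 to 0.20 for *Hsp83* in null against FLWF24, -0.21 to 0.072 for *Hsp83* in null against ΔN, -0.55 to 0.56 for *Hsp67Bc* in FL against WT, -0.10 to 0.31 for *Hsp70Ba* in FL against WT, -0.056 to 0.12 for *Hsp83* in FL against WT, -0.29 to 0.19 for *Hsp27* in FLWF24 against FL, -0.10 to 0.54 for *Hsp70Ba* in FLWF24 against FL, -0.72 to 0.035 for *Hsp26* in FLWF24 against WT, -0.29 to 0.47 for *Hsp68* in FLWF24 against WT, -0.15 to 0.63 for *Hsp70Ba* in FLWF24 against WT, -0.35 to 0.0053 for *DnaJ-1* in FLWF24 against WT, -0.23 to 0.26 for *stv* in FLWF24 against WT, -0.13 to 0.35 for *Hsp27* in ΔN against FL, -0.48 to 0.62 for *Hsp67Bc* in ΔN against FL, -0.53 to 0.0022 for *Hsp27* in ΔN against WT, -0.22 to 0.34 for *Hsp67Bc* in ΔN against WT, -0.054 to 0.53 for *Hsp27* in ΔN against FLWF24 and -0.23 to 0.16 for *Hsp83* in ΔN against FLWF24.

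Over all genes tested the number of calls, with its range over the alternatives, was 60 (3 to 1308) in null against FL, 76 (14 to 325) in null against WT, 120 (2 to 815) in null against FLWF24, 136 (26 to 1512) in null against ΔN, 11 (5 to 356) in FL against WT, 3 (0 to 216) in FLWF24 against FL, 22 (3 to 221) in FLWF24 against WT, 2 (0 to 374) in ΔN against FL, 9 (1 to 272) in ΔN against WT and 41 (13 to 340) in ΔN against FLWF24. Whether the replicate numbers pair the libraries was not tested. Of the 36 same-numbered pairs, 10 deviated together with a correlation above 0.1 (range -0.43 to 0.25). The median correlation was 0.023 for same-numbered pairs and -0.021 for other pairs of libraries from different genotypes. With the replicate block, 4 of the 9 genes were called in null against ΔN, without *Hsp26* (edgeR adjusted p 0.0682). Upper-quartile scaling moved the median of all genes by -0.13 and 2 factors by 0.15 in null against ΔN.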
